A study of Saccharomyces cerevisiae with 93 samples.

Results

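The VPS genes of budding yeast (Saccharomyces cerevisiae) are the genes whose standard name is VPS followed by a number, and 42 of the 6377 probes on the arrays carried such a gene. They were found through the locus tag of each probe and the standard name that the RefSeq gene table of assembly R64 gives to that tag. The rule uses names alone, but it was set with earlier results of these data known. Genes of the same pathway that are known under other names, such as PEP8 and PEP12, were not members and were counted separately. All 42 members entered every test, since no filter on low values was applied.

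RNA was compared on 93 dual-colour arrays, and 83 of them are used here. The cells were W303 "pump mutants", described on the label of 1 array as a MATa strain with mutant alleles of ADE2, TRP1, URA3, LEU2, HIS3 and CAN1, in which kanMX replaces pdr1 and pdr3. PDR1 and PDR3 encode regulators of drug efflux pumps. The 2-copy cells held 2 copies of human alpha-synuclein, the protein that aggregates in Parkinson's disease, fused to green fluorescent protein and driven by a galactose promoter on the plasmids pRS304GAL and pRS306GAL. The 1-copy cells held 1 such copy, and vector cells, the control, held none. The labels do not say whether the vector and 1-copy strains share that genotype, or whether each strain was 1 clone.

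Comparisons of 3 kinds were made in the time course, namely 2-copy over vector, 1-copy over vector and 1-copy over 2-copy cells at 0, 2, 4 and 6 h after transfer to galactose. In the compound experiment, all at 4 h, cells with 1 of 6 compounds were set against the same strain without it, and 2-copy cells with a compound were set against vector cells with the same compound. Compounds 1 and 2 are 3,4-dihydrobenzo[h]quinolin-2(1H)-ones that carry a 3-iodophenyl and a 3-bromophenyl group. Compounds 3 and 4 are 6,7-dimethyl quinolinones with a bromofluorophenyl group in which the halogens sit at different positions. Compound 5 is a 6,7-dimethyl quinolinone with a 4-ethyl substituent as the labels write it, and compound 6 is the (4R) form of a 6-bromo dihydrobenzoquinolinone with a 4-ethylphenyl group. The labels give no doses.

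Newly made vacuolar enzymes and membrane proteins leave the Golgi, pass through endosomes and end in the vacuole, the degradative organelle of yeast. VPS genes were collected as mutants that secrete vacuolar enzymes instead of delivering them. They encode coat, tether, GTPase and lipid kinase complexes that form, direct and fuse the carriers along this route, and several of them return sorting receptors to the Golgi. A block in vesicle traffic between the endoplasmic reticulum and the Golgi is a known effect of alpha-synuclein in yeast.

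Each value below is a log2 ratio, in which 0 means equal RNA in both samples and 1 means a 2-fold ratio. The sources state neither scale nor direction, and each value was taken as the log2 of Cy5 relative to Cy3, with the sample named first in the label in Cy5, as limma's convention and the order of the labels make likely. No comparison had a dye swap. The values are ratios, so that levels of different genes were not compared. Groups held 3 arrays, or 6 for 2-copy over vector at 4 h, labelled as pairs of biological replicates. The 10 arrays left out as suspect were arrays 2 and 3 of the ratio 2-copy over vector under compounds 3, 4 and 6, arrays 2 and 3 of compound 3 in 2-copy cells, and array 3 of compounds 4 and 6 in 2-copy cells. Array 2 of compound 6 in 2-copy cells and array 2 of compound 5 in vector cells correlated with another array of their set at -0.41 and -0.36 over all probes, so that the direction of these arrays is not settled. With the sign of these 2 arrays turned, 0 members passed with compound 6 in 2-copy cells and 0 with compound 5 in vector cells, as they did unturned, and the medians of the members were 0.01 and 0.04 in place of -0.04 and -0.03.

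Alpha-synuclein itself was not measured by a probe that could be named here. The marker of the endoplasmic reticulum stress response KAR2, a chaperone of that compartment, stood at 0.54 ± 0.38 at 0 h, 2.02 ± 0.63 at 2 h, 3.57 ± 0.21 at 4 h and 3.65 ± 0.22 at 6 h in 2-copy over vector cells (SD, n = 3, and n = 6 at 4 h). It passed the test from 2 h on (limma, adjusted p = 2.7e-05 at 2 h). The plasmid marker TRP1 was higher in 2-copy cells at 4 h, at 1.26 ± 0.36, and the marker URA3 was lower, at -0.91 ± 0.26 (limma, adjusted p = 3.8e-19 and 3.6e-06).

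Induction of 2 copies of alpha-synuclein was accompanied by higher RNA of many VPS genes at 4 h. Of the 42 members, 22 were higher and 5 lower in 2-copy than in vector cells at an adjusted p under 0.05 (limma), which is 52.4% and 11.9% of them. Over all probes tested, 32% were higher and 29.8% lower in that comparison. The median log2 ratio was 0.20 over the members and -0.00 over all probes, and member means lay between -0.57 for VPS75 and 0.84 for VPS51. At 6 h, 17 members were higher and 7 lower, or 40.5% and 16.7%, beside 22.6% and 20.2% of all probes, and the members' median was 0.21. In RNA of whole cultures, a change in some of the cells and a smaller change in all of them cannot be told apart.

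Before and soon after induction few members passed the test between the strains. At 0 h, 3 were higher, VPS1 and VPS73 at 0.38 each and VPS36 at 0.28, and 0 lower, beside 8.39% and 6.45% of all probes. At 2 h, 4 were higher, VPS74 at 0.31, VPS36 at 0.30, VPS5 at 0.29 and VPS60 at 0.28, and 0 lower, beside 6.9% and 5.33%. At an unadjusted p under 0.05 there were 6 members at 0 h and 12 at 2 h. Shares of all probes called, here and below, are at an adjusted p under 0.05. None is given at an unadjusted p, so the unadjusted counts have no background beside them. Without array 1 of every group only 1 member passed at 0 h, without array 3 there was none, and at 2 h 1 or 2 passed whichever array was left out.

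**Figure D1:**
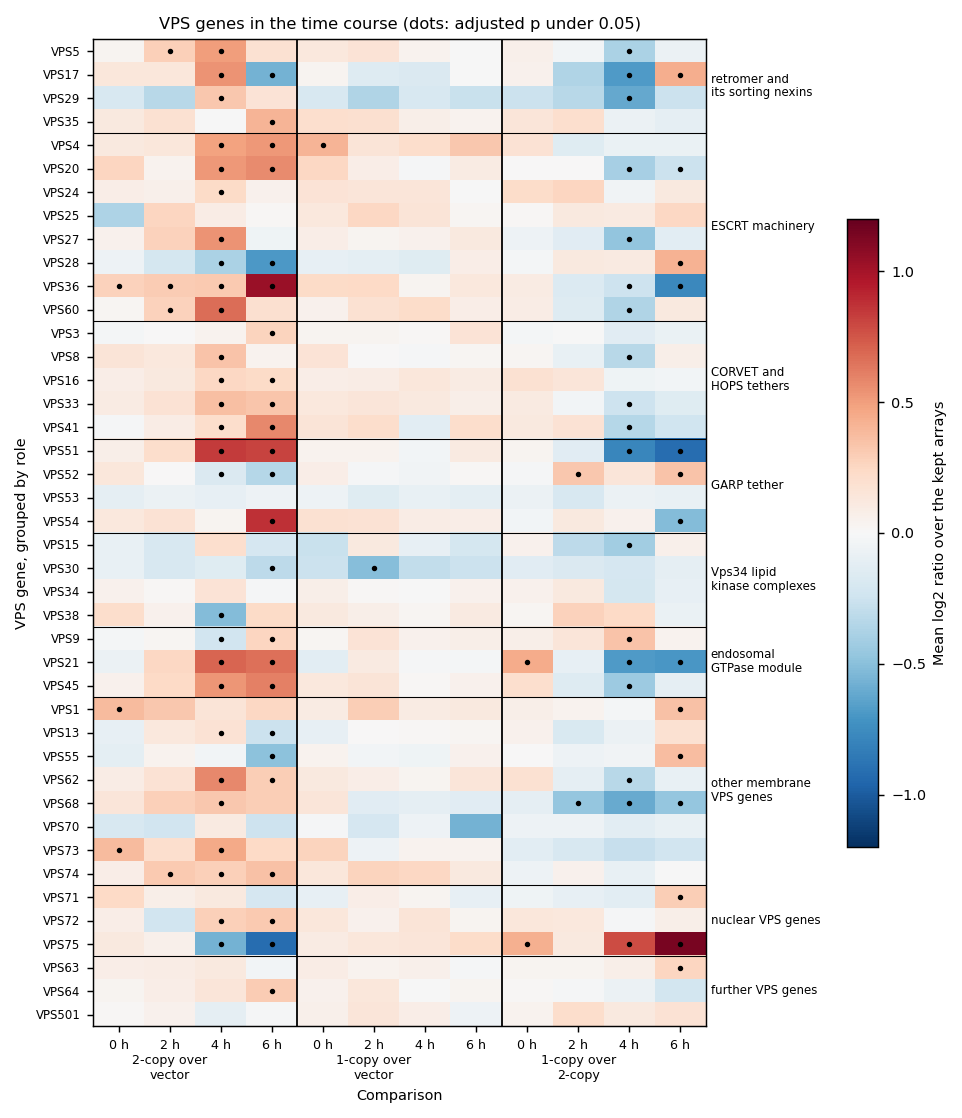
Mean log2 ratio of the 42 VPS genes (rows, ordered by role) in the 12 time-course comparisons (columns, 2-copy over vector, 1-copy over vector and 1-copy over 2-copy cells, each at 0, 2, 4 and 6 h), with a dot where the adjusted p is under 0.05. Most dots lie in 2-copy over vector and in 1-copy over 2-copy at 4 and 6 h, with 27 and 24 members in the first and 18 and 14 in the second.

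Retromer carries sorting receptors from endosomes back to the Golgi. Its sorting nexins VPS5 (YOR069W) and VPS17 (YOR132W), which shape the membrane tubule, and VPS29 (YHR012W), part of the cargo-selecting core, were higher in 2-copy cells at 4 h, at 0.50 ± 0.12, 0.54 ± 0.25 and 0.32 ± 0.11 (SD, n = 6, limma, adjusted p = 4.6e-10, 2.0e-05 and 0.0047). VPS35 (YJL154C), the other core member, was at -0.01 ± 0.22 (adjusted p = 0.93). At 6 h the set parted. VPS17 was lower in 2-copy cells, with -0.75, -0.54 and -0.41 on the 3 arrays at 6 h, while at 4 h its 6 arrays ranged between 0.06 and 0.77 with a median of 0.61. The values at these times did not overlap and lay on opposite sides of 0. The difference of 6 h minus 4 h was -1.10 (SE 0.19, limma, adjusted p = 3.7e-06), the largest in size of any member. VPS35 was higher at 6 h, with 0.43, 0.44 and 0.34, while VPS29 and VPS5 did not pass the test at 6 h. The probe of VPS5 covers a gene that shares 345 bases with VAM10 on the opposite strand.

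The ESCRT complexes sort ubiquitinated membrane proteins into vesicles inside the endosome. Of 8 members, 6 were higher and 1 lower at 4 h, beside 32% and 29.8% of all probes, with a median of 0.40. VPS60 (YDR486C), an ESCRT-III related protein, led them, with 6 arrays at 4 h between 0.49 and 0.83 and a median of 0.70. Its 3 arrays at 0 h were -0.05, -0.08 and 0.20, so that every array at 4 h lay above every array at 0 h. The change of 4 h minus 0 h was 0.65 (SE 0.11, adjusted p = 2.4e-06), and at 6 h VPS60 read 0.07, 0.36 and 0.15 and did not pass (adjusted p = 0.082).

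VPS27 (YNR006W), the ESCRT-0 protein that binds ubiquitinated cargo first, was at 0.54 ± 0.10 at 4 h (adjusted p = 3.9e-06). At 6 h it read 0.24, 0.27 and -0.65, with array 3 alone below 0. VPS20 (YMR077C), which starts the ESCRT-III filament, and VPS4 (YPR173C), the ATPase that takes the filament apart, were higher at both times, VPS20 at 0.57 ± 0.30 at 6 h and 0.52 ± 0.14 at 4 h, and VPS4 at 0.52 ± 0.23 at 6 h and 0.48 ± 0.09 at 4 h. VPS24 (YKL041W), another ESCRT-III subunit, was at 0.23 ± 0.09 at 4 h. VPS25 (YJR102C), of ESCRT-II, passed in no comparison of group means.

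A pair of ESCRT members moved in opposite directions between 4 and 6 h. VPS36 (YLR417W), the ESCRT-II subunit that binds lipid and ubiquitin, read 0.36, 0.15 and 0.32 at 0 h, 0.35, 0.31 and 0.25 at 2 h, 0.18 to 0.43 at 4 h with a median of 0.32, and 0.72, 1.26 and 1.14 at 6 h. Every array was above 0 and every array at 6 h lay above all earlier ones. Its mean of 1.04 ± 0.28 at 6 h was a 2.06-fold ratio (adjusted p = 9.2e-16), and 6 h minus 4 h was 0.72 (SE 0.10, adjusted p = 8.2e-08). VPS28 (YPL065W), a subunit of ESCRT-I, was lower in 2-copy cells, with -0.89, -0.70 and -0.47 at 6 h, while its 6 arrays at 4 h ran between -0.56 and -0.23 with a median of -0.37. All 9 values were below 0, while at 0 h the arrays read -0.06, 0.05 and -0.16. The mean was -0.69 ± 0.21 at 6 h and -0.38 ± 0.11 at 4 h (adjusted p = 2.6e-06 and 6.6e-05).

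CORVET and HOPS are the tethers that hold endosomes and vacuoles together before fusion, and 4 of 5 members were higher at each of these times, beside 32% of all probes at 4 h and 22.6% at 6 h. At 4 h these were VPS33 (YLR396C), the SNARE-binding subunit of both complexes, at 0.36 ± 0.18, VPS8 (YAL002W), of CORVET, at 0.35 ± 0.09, VPS16 (YPL045W), a shared subunit, at 0.25 ± 0.16, and VPS41 (YDR080W), of HOPS, at 0.21 ± 0.09. At 6 h they were VPS41 at 0.58 ± 0.68, VPS33 at 0.33 ± 0.23, VPS3 (YDR495C), of CORVET, at 0.27 ± 0.40, and VPS16 at 0.23 ± 0.14. VPS41 at 6 h rested on array 2, at 1.34, beside 0.04 and 0.36 on the others, and at 0.20 without array 2 it no longer passed.

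GARP, which tethers vesicles from endosomes at the Golgi, held both the highest member at 4 h and a lower one. VPS51 (YKR020W) read 0.02, 0.17 and 0.02 at 0 h, 0.28, -0.01 and 0.37 at 2 h, 0.69 to 0.96 at 4 h with a median of 0.84, and 0.70, 0.67 and 1.08 at 6 h. Every array at 4 and 6 h lay above every earlier one. The mean at 4 h, 0.84 ± 0.11, was a 1.79-fold ratio (adjusted p = 5.8e-10), and the change of 4 h minus 0 h was 0.77 (SE 0.18, adjusted p = 4.4e-04). VPS54 (YDR027C) read 1.21, 0.81 and 0.63 at 6 h and 0.39, 0.12, 0.24, -0.21, -0.18 and -0.16 on arrays 1 to 6 at 4 h, so that every array at 6 h lay above all those at 4 h. Its mean at 6 h was 0.88 ± 0.30 (adjusted p = 5.5e-07), and it did not pass at 4 h (adjusted p = 0.77). VPS52 (YDR484W) was lower at both times, at -0.35 ± 0.24 at 6 h and -0.17 ± 0.14 at 4 h, and VPS53 (YJL029C) passed in no comparison of group means. Without array 1, VPS52 at 6 h was at -0.22 and did not pass.

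The Vps34 lipid kinase makes the phosphatidylinositol 3-phosphate that marks endosomes. Its catalytic subunit VPS34 (YLR240W) was at 0.16 ± 0.13 and the regulatory kinase VPS15 (YBR097W) at 0.20 ± 0.13 at 4 h, and neither passed (adjusted p = 0.062 and 0.055). VPS30 (YPL120W), which also serves autophagy, was lower at 6 h, with -0.28, -0.44 and -0.24. It no longer passed without array 2 or without array 3. VPS38 (YLR360W), which directs the kinase to endosomes, was called lower at 4 h at -0.52 ± 0.50 (adjusted p = 9.0e-07). That call rested on arrays 4 to 6, at -0.73, -1.23 and -0.89. Arrays 1 to 3 were at -0.13, -0.01 and -0.10, and fitted alone they gave -0.08 (adjusted p = 0.47).

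Among the endosomal GTPase genes, VPS21 (YOR089C), the yeast counterpart of RAB5, read -0.01, 0.10 and -0.30 at 0 h, 0.26, 0.32 and 0.18 at 2 h, 0.51 to 0.94 at 4 h with a median of 0.68, and 0.80, 0.71 and 0.46 at 6 h. No array at 4 or 6 h lay below the highest array at 0 or 2 h. The mean was 0.70 ± 0.17 at 4 h (adjusted p = 2.1e-10). VPS45 (YGL095C), the Sec1 family protein of the same fusion step, was at 0.53 ± 0.14 at 4 h. At 6 h it was called at 0.61 ± 0.58, and without array 3, at 1.24, it was at 0.29 and did not pass. VPS9 (YML097C), the exchange factor that activates Vps21, was higher at 6 h, at 0.26 ± 0.14, and lower at 4 h, at -0.23 ± 0.18. The difference of 6 h minus 4 h was 0.48 (SE 0.13, adjusted p = 0.0023).

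Of 8 further genes with membrane roles, 5 were higher at 4 h and 0 lower, beside 32% and 29.8% of all probes. VPS62 (YGR141W) was at 0.58 ± 0.10, VPS73 (YGL104C) at 0.46 ± 0.14 and VPS68 (YOL129W), which acts with Vps55 in transport from late endosomes, at 0.32 ± 0.07. VPS74 (YDR372C), which retains glycosyltransferases in the Golgi, and VPS13 (YLL040C), a lipid transfer protein at membrane contacts, were at 0.28 ± 0.26 and 0.17 ± 0.12. For VPS74, arrays 1 to 3 read 0.61, 0.46 and 0.44, while arrays 4 to 6 read 0.20, -0.05 and 0.04. VPS1 (YKR001C), a dynamin-like GTPase, was at 0.15 ± 0.11, VPS55 (YJR044C) at -0.03 ± 0.10 and VPS70 (YJR126C) at 0.11 ± 0.12, and none of these 3 passed. At 6 h VPS62 and VPS74 were higher and VPS13 and VPS55 lower, the last at -0.66, -0.56 and -0.28. Without array 1, VPS55 at 6 h was at -0.42 and did not pass.

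Some members have roles outside membrane traffic. VPS75 (YNL246W), a histone chaperone of the NAP family, was the lowest member at both 4 and 6 h. It read 0.04, 0.16 and 0.15 at 0 h, 0.04, 0.05 and 0.10 at 2 h, -0.70 to -0.41 at 4 h with a median of -0.57, and -1.06, -1.0 and -0.69 at 6 h. All arrays at 0 and 2 h were above 0, all later ones were below it, and the 3 at 6 h overlapped those at 4 h by 1 array. The ratio was 0.53-fold at 6 h and 0.68-fold at 4 h (adjusted p = 2.6e-09 and 2.7e-08). The changes of 4 h minus 0 h and 6 h minus 0 h were -0.68 (SE 0.14) and -1.03 (SE 0.16, adjusted p = 7.8e-05 and 2.1e-06), and 6 h minus 4 h was -0.35 (SE 0.14, adjusted p = 0.050, just under the threshold). VPS72 (YDR485C), a subunit of the SWR1 chromatin remodeller, was at 0.28 ± 0.04 at 4 h and VPS71 (YML041C), another SWR1 subunit, at 0.12 ± 0.21 without passing. The further VPS genes were not assigned a role here. Of them, VPS64 (YDR200C) was higher at 6 h, at 0.31 ± 0.17, while VPS501 (YKR078W) and VPS63 (YLR261C) passed at neither time. VPS63 shares 320 of its 327 bases with YPT6 on the same strand, so that its probe and that gene cannot be told apart.

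**Figure D2:**
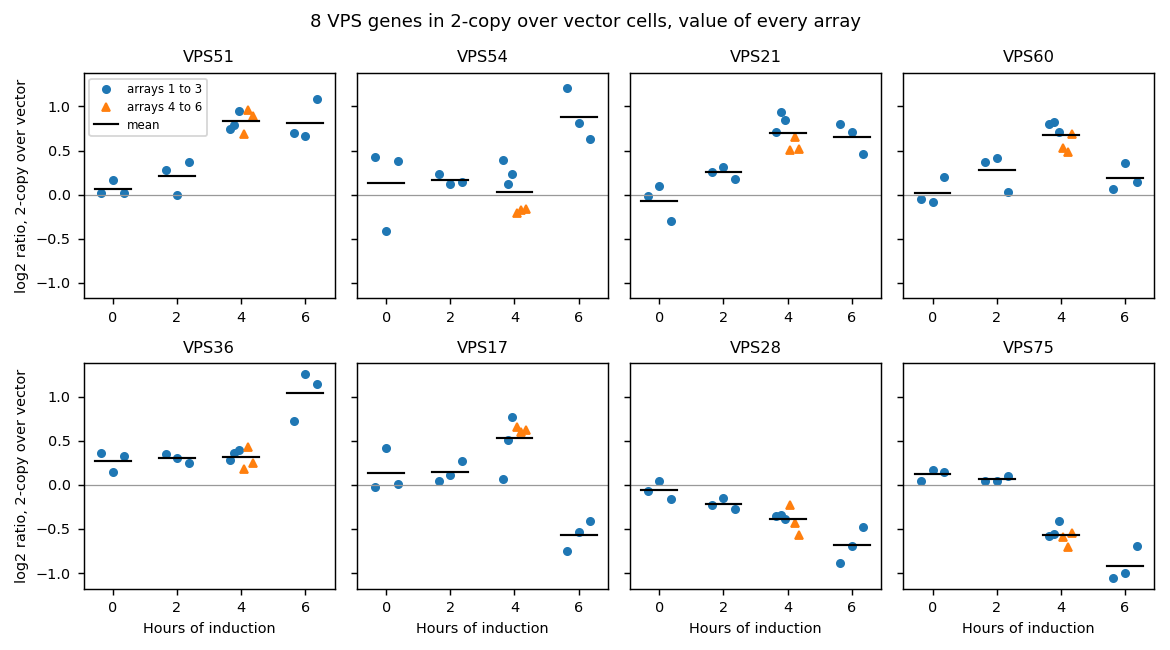
Log2 ratio of 2-copy over vector cells on every array at 0, 2, 4 and 6 h for VPS51, VPS54, VPS21, VPS60, VPS36, VPS17, VPS28 and VPS75. Points are arrays (circles for arrays 1 to 3, triangles for arrays 4 to 6 at 4 h) and bars are means. VPS75 and VPS28 lie below 0 at 4 and 6 h, VPS51 and VPS21 above it, VPS36 stands out at 6 h at 0.72 to 1.26, and VPS17 is above 0 at 4 h and below it at 6 h.

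Set against 0 h of the same comparison, 10 members rose and 3 fell at 4 h, beside 21.8% and 18.5% of all probes. At 6 h, 6 rose and 5 fell, beside 13% and 12.6%. At 2 h there was 0 of 42, beside 5.63% of all probes in either direction, and 2 members were at an unadjusted p under 0.05. At 6 h minus 4 h, 6 members were higher and 9 lower, beside 15.9% and 17.2%, and VPS17 led the lower ones and VPS54 the higher ones, at -1.10 and 0.85. At 6 h minus 0 h, VPS71 was called lower at -0.44 (SE 0.17, adjusted p = 0.043), a call that was lost without any of the 3 arrays. When each array was divided by its own spread, the split of higher and lower members became 2 and 1 for 6 h minus 0 h and 3 and 1 for 6 h minus 4 h.

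That scaling bears on the sizes of all values above. Shares of all probes are given for the unscaled fit to the 83 arrays only. Counts under scaling or another alternative fit, here and elsewhere, therefore have no background beside them. It took VPS51 at 4 h to 0.48 (adjusted p = 9.4e-06) and VPS75 to -0.52 at 6 h and -0.33 at 4 h (adjusted p = 0.011 at each). At 4 h, 17 members were then higher and 3 lower, and 5 of the 22 higher calls were lost, those of VPS41, VPS72, VPS24, VPS13 and VPS68. At 6 h, 7 were higher and 2 lower, so that 15 of the 24 calls were lost. Of the 17 higher calls at 6 h 10 were lost, those of VPS64, VPS74, VPS72, VPS3, VPS62, VPS35, VPS33, VPS9, VPS16 and VPS4. Of the 7 lower ones 5 were lost, those of VPS17, VPS55, VPS52, VPS30 and VPS13. At 2 h, 4 were higher and 1 lower.

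The 6 arrays of 2-copy over vector at 4 h belong to 2 label ranges, arrays 1 to 3 and arrays 4 to 6, and the labels do not say which of them came with the time course. In 15 of 42 members, or 35.7%, the ranges of the sets did not overlap, beside 34.1% of all probes, and in 6 members the means of the sets differed in sign. VPS38, VPS35 and VPS54 were among the 15, and the means of VPS35 and VPS54 also differed in sign, with VPS35 at 0.18, 0.20 and 0.19 on arrays 1 to 3 and -0.25, -0.19 and -0.18 on arrays 4 to 6. Fitted alone, arrays 1 to 3 gave 18 members higher and 2 lower, and arrays 4 to 6 gave 18 and 5. The shares of all probes called in these fits, or with means that differed in sign, are not given here. These counts therefore do not show whether the members stood apart from all probes in each set. VPS51, VPS21, VPS60 and VPS75 kept their direction on every array of both sets.

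**Figure D3:**
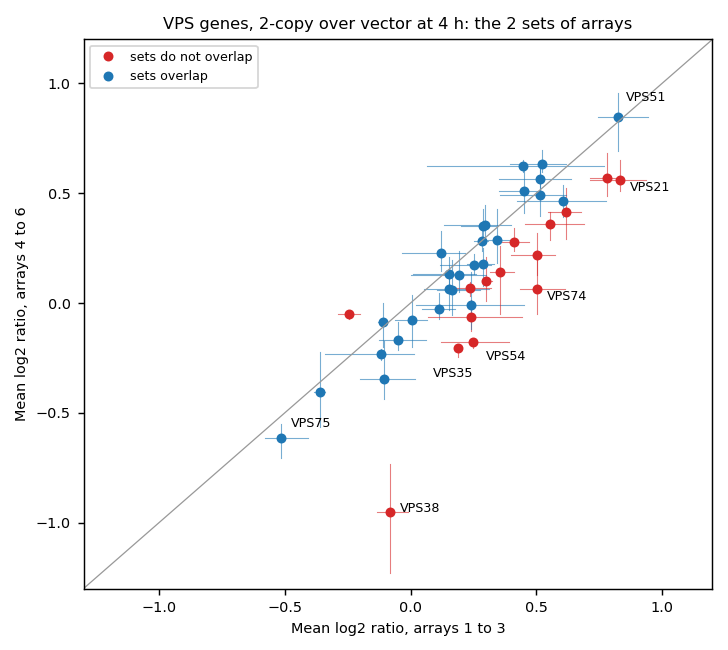
Mean log2 ratio of 2-copy over vector cells at 4 h over arrays 4 to 6 (vertical axis) against that over arrays 1 to 3 (horizontal axis) for each of the 42 VPS genes, with bars from the lowest to the highest array of each set. Red marks the 15 members whose sets do not overlap, among them VPS38, at -0.95 on arrays 4 to 6 and -0.08 on arrays 1 to 3.

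With 1 copy of alpha-synuclein, few members differed from vector cells. At 0 h VPS4 was higher, at 0.41 ± 0.20, at 2 h VPS30 was lower, at -0.51 ± 0.09 (SD, n = 3, limma, adjusted p = 0.030 and 0.0019), and at 4 and 6 h there was 0 of 42. At an unadjusted p under 0.05 there were 6 members at 0 h, 6 at 2 h, 3 at 4 h and 3 at 6 h. Of all probes, 2.98% passed at 0 h, 5.76% at 2 h, 0.643% at 4 h and 0.8% at 6 h. VPS4 no longer passed without array 2 or 3, and VPS30 without array 3. Division by array spread gave 2 members higher and 2 lower at 2 h, 2 and 1 at 4 h, and 4 and 3 at 6 h.

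In the direct comparison with 2-copy cells, 1-copy cells had 2 members higher and 16 lower at 4 h, beside 23.2% and 24.9% of all probes. VPS51 at -0.78 ± 0.15, VPS17 at -0.68 ± 0.20, VPS21 at -0.68 ± 0.17, VPS29 at -0.61 ± 0.03 and VPS68 at -0.60 ± 0.31 were the lowest. VPS75 was the highest at 0.79 ± 0.07 (adjusted p = 9.7e-08), followed by VPS9 at 0.35 ± 0.10. At 6 h, 8 were higher and 6 lower, beside 19.8% and 20%. VPS75 was then at 1.14 ± 0.19 (adjusted p = 6.1e-12), a wider gap than in any other member, with VPS17 at 0.43, VPS28 at 0.42, VPS55 at 0.37, VPS1 at 0.35 and VPS52 at 0.34. VPS51 at -0.92 ± 0.29, VPS36 at -0.77 ± 0.22, VPS21 at -0.70 ± 0.16 and VPS54 at -0.52 ± 0.43 were lower. Without 1 of the arrays, 8 or 9 members passed at 6 h, and the calls of VPS17, VPS55, VPS1, VPS52, VPS28, VPS54 and VPS20 were each lost without at least 1 of them. After division by array spread the split at 6 h was 1 higher and 3 lower.

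At 0 h 2 members were called higher in 1-copy than in 2-copy cells, VPS21 at 0.44 and VPS75 at 0.42, beside 4.5% of all probes in either direction. VPS75 read 1.28 on array 1 and 0.10 and -0.10 on the others, so that its call rested on 1 array. At 2 h VPS52 was higher at 0.32 and VPS68 lower at -0.47, beside 11.9%. Leaving out any array left 1 call at 0 h and 0 or 1 at 2 h. Over the members, the measured ratio correlated with that computed from the comparisons over vector at only 0.11 at 0 h. That correlation was 0.55 at 2 h and 0.95 at 4 h. After division by array spread, 5 were higher and 1 lower at 0 h.

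Other genes of the sorting pathway, known under other names, were counted from lists that hold 52 genes together. At 4 h, 26 were higher and 7 lower in 2-copy cells, beside 32% and 29.8% of all probes, and at 6 h 15 were higher and 10 lower, beside 22.6% and 20.2%. PEP12, the endosomal syntaxin that works with Vps45, was at 1.43 ± 0.28 at 4 h and YPT53, a paralogue of VPS21, at 1.09 ± 0.25 (adjusted p = 4.0e-20 and 8.3e-16), and all 5 genes of the GTPase list with other names, these included, were higher. PEP8, the remaining retromer core gene, was at 0.54 ± 0.17, and PEP1, the sorting receptor of carboxypeptidase Y that retromer returns, at 0.76 ± 0.22. DOA4, which removes ubiquitin from ESCRT cargo, was at 0.75 ± 0.20. At 6 h PEP8 read -0.13 ± 0.21 and PEP1 0.28 ± 0.23, and neither passed.

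Vacuolar enzymes and the vacuole's proton pump were counted next. Of 12 genes listed as vacuolar hydrolases, 9 were higher at 4 h and 0 lower, beside 32% and 29.8% of all probes, among them PRB1, a vacuolar protease, at 2.70 ± 0.17, AMS1, a mannosidase, at 2.51 ± 0.18 and PHO8, a phosphatase, at 1.28 ± 0.20. YPS1 at 2.65 ± 0.23, also on that list, is a protease of the cell surface. Of 18 vacuolar ATPase genes, 3 were higher and 8 lower at 4 h, beside the same shares. At 6 h 1 was higher and 9 were lower, beside 22.6% and 20.2% of all probes, when VMA2 and VMA13, subunits of its cytosolic part, were at -1.24 ± 0.08 and -1.14 ± 0.21 (adjusted p = 3.6e-16 and 2.2e-10).

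In 2-copy cells with compounds 1 and 2, the VPS genes that passed were mostly lower, and fewer passed after division by array spread. With compound 1, 1 member was higher and 14 were lower than without it, or 2.38% and 33.3%, beside 17.2% and 19.8% of all probes. With compound 2, 1 was higher and 12 were lower, or 2.38% and 28.6%, beside 16.6% and 20.5%. The medians of the members were -0.13 and -0.20, and those of all probes 0.01 and -0.00. These comparisons share the strain and time with the 2-copy over vector arrays at 4 h, and the labels do not say whether they share cultures.

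The single higher member with both compounds was VPS75. It read 0.79, 0.74 and 0.90 in 2-copy cells with compound 1 and 0.73, 1.03 and 1.02 with compound 2, against 2-copy cells without compound. Compound 3, on its 1 array kept, gave 1.15, compound 4 gave 1.02 and 0.75, compound 5 gave 0.29, -0.09 and 0.48, and compound 6 gave 0.51 and 0.00. The arrays of compounds 1 to 4 all lay above those of compounds 5 and 6. The means of 0.81 ± 0.08 and 0.92 ± 0.17 with compounds 1 and 2 passed (adjusted p = 1.3e-07 and 3.9e-09), as did those with compounds 3 and 4 (adjusted p = 1.7e-04 and 1.0e-05).

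VPS51 moved the other way. It read -1.56, -0.31 and -0.46 with compound 1, -1.12, -0.36 and -0.70 with compound 2, -0.88 with compound 3, -0.89 and -0.47 with compound 4, -0.85, 0.18 and -0.17 with compound 5 and -0.37 and 0.15 with compound 6. Array 1 was the lowest wherever more than 1 array was kept, and with compounds 1 to 4 every array was below 0. The means of -0.78, -0.73, -0.88 and -0.68 with compounds 1 to 4 passed (adjusted p = 2.9e-05, 7.4e-05, 0.024 and 0.0069). Without array 1, compound 1 gave -0.39 (adjusted p = 0.048) and compound 4 gave -0.47 without passing. Compound 3 no longer passed with array numbers as a block, at -0.77, nor when the compound arrays were fitted alone, and all 93 arrays together gave -0.26 for compound 3 and -0.44 for compound 4 without passing.

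By role, 2 retromer genes were lower with each of compounds 1 and 2, VPS5 at -0.31 and -0.48 and VPS29 at -0.44 and -0.52. Of the ESCRT set, VPS36 was at -0.24 and -0.49 and VPS60 at -0.27 with each, and VPS27 was lower with compound 1 at -0.47. Of the tethers, VPS33 was at -0.33 and -0.30 and VPS8 at -0.29 with each. VPS45, of the fusion step, was at -0.60 and -0.41, and VPS34, the lipid kinase, at -0.31 and -0.29. VPS62 was at -0.30 and -0.33. With compound 1, VPS74 was also lower, at -0.37, and VPS21, at -0.36. All of these passed the limma test. The calls of VPS27, VPS74 and VPS21 with compound 1 were lost without array 1, when 8 members in place of 15 passed, and that of VPS29 without array 2. After division by array spread, compound 1 had 1 member higher and 3 lower and compound 2 had 1 and 7.

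Among the 52 other genes of the sorting pathway, 6 were higher and 18 lower with compound 1, beside 17.2% and 19.8% of all probes, and 6 and 17 with compound 2, beside 16.6% and 20.5%. PEP1 was at -0.68 ± 0.16 and -0.85 ± 0.19, PEP8 at -0.43 ± 0.21 and -0.44 ± 0.24 and PRB1, of the vacuolar hydrolases, at -1.23 ± 0.27 and -1.69 ± 0.41. PEP12 and DOA4 were lower with both, and SNX3, a sorting nexin for retromer cargo, was higher, at 1.05 ± 0.27 with compound 2.

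Fewer members passed with compounds 4, 5 and 6 in 2-copy cells than with compounds 1 and 2. Compounds 4 and 6 kept 2 arrays each and compound 3 kept 1, beside 3 for compounds 1, 2 and 5, so these counts are not of equal power. Compounds 3 and 4 had 1 higher, VPS75, and 2 lower, VPS51 and VPS5, beside 6.77% and 13.1% of all probes in either direction. VPS5 was at -0.66 with compound 3 and at -0.40 ± 0.18 with compound 4 (adjusted p = 0.0039 and 0.0072), and without array 1 compound 4 gave -0.28 and did not pass. The single array of compound 3 was taken to vary like the other groups, and with all 93 arrays VPS75 and VPS5 no longer passed there, at 0.37 and -0.21. After division by array spread compound 3 had 1 higher and 1 lower. Compound 5 had 0 higher and 3 lower, VPS63, VPS64 and VPS34 at -0.44, -0.38 and -0.38, beside 2.12%, and all 3 were lost without array 1, on which VPS21, VPS27, VPS29 and VPS64 read -1.35, -1.17, -1.51 and -1.07. Compound 6 had 0 of 42, beside 0.0157%, and 0 also at an unadjusted p under 0.05.

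**Figure D4:**
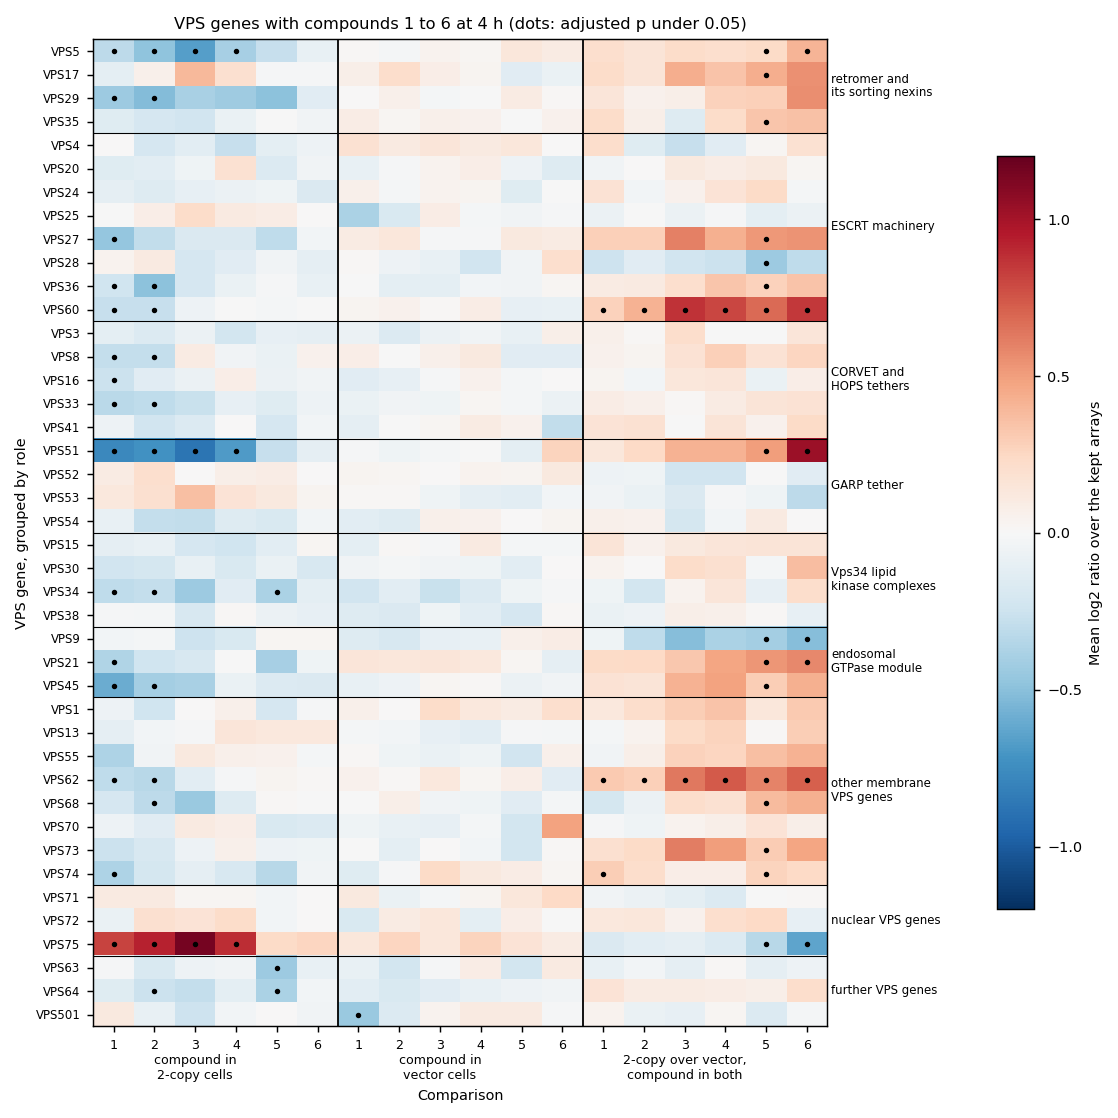
Mean log2 ratio of the 42 VPS genes (rows, ordered by role) for each of the 6 compounds in 2-copy cells over 2-copy cells without it, in vector cells over vector cells without it, and in 2-copy over vector cells with it, with a dot where the adjusted p is under 0.05. Compounds 1 and 2 in 2-copy cells carry 15 and 13 dots, and the vector cells carry 1 in all.

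In vector cells without alpha-synuclein, the compounds left nearly all members under the threshold. With compound 1, VPS501 was called lower at -0.44 ± 0.52 (adjusted p = 0.0034), beside 5.27% of all probes, and at -0.14 without array 2 it did not pass. With compounds 2 to 6 there was 0 of 42 in each, beside 2.15%, 0.345%, 0.392%, 0.768% and 0.0157% of all probes. At an unadjusted p under 0.05 there were 3, 2, 2, 1, 1 and 3 members with compounds 1 to 6. The means of VPS75 were 0.13, 0.26, 0.13, 0.26, 0.17 and 0.10, all above 0 and all below its means with compounds 1 to 4 in 2-copy cells. VPS70 read 1.49 on array 3 of compound 6.

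The response of 2-copy cells minus that of vector cells was tested directly. With compound 1, 2 members differed upwards, VPS75 and VPS501, and 6 downwards, beside 17.4% of all probes in either direction. VPS75 differed by 0.68 (SE 0.16) and VPS51 by -0.77 (SE 0.21, limma, adjusted p = 0.0022 and 0.0069), followed by VPS27, VPS45, VPS21 and VPS8 between -0.56 and -0.37. With compound 2, 1 member differed upwards and 5 downwards, beside 15.8%, with VPS75 at 0.67 (SE 0.16), VPS51 at -0.68 (SE 0.21), VPS29 at -0.58, VPS5 at -0.45 and VPS36 at -0.38. With compound 3, VPS75 differed by 1.01 (SE 0.23) and VPS5 by -0.70 (SE 0.18), beside 1.51%, with 1 array in 2-copy cells. For the members named here other than VPS501 the arrays of the strains did not overlap. For the remaining downward member with compound 1 they did.

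With compounds 4, 5 and 6 there was 0 of 42, beside 2.32%, 0.0784% and 0% of all probes. At an unadjusted p under 0.05 these compounds had 6, 8 and 1 members. For VPS75 the difference was 0.62 (95% interval 0.25 to 0.99) with compound 4, 0.06 (-0.27 to 0.39) with compound 5 and 0.16 (-0.21 to 0.52) with compound 6. These calls depended on the arrays and on scaling. Without array 1, 2 or 3, compound 1 had 4, 5 and 4 members and compound 2 had 2, 5 and 0, and compound 3 had 0 without array 2 or 3. After division by array spread 1 member passed with compound 1, differing upwards, and 0 with compounds 2 and 3, and VPS75 then differed by 0.36 and 0.34 with compounds 1 and 2 (adjusted p = 0.35 and 0.38).

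**Figure D5:**
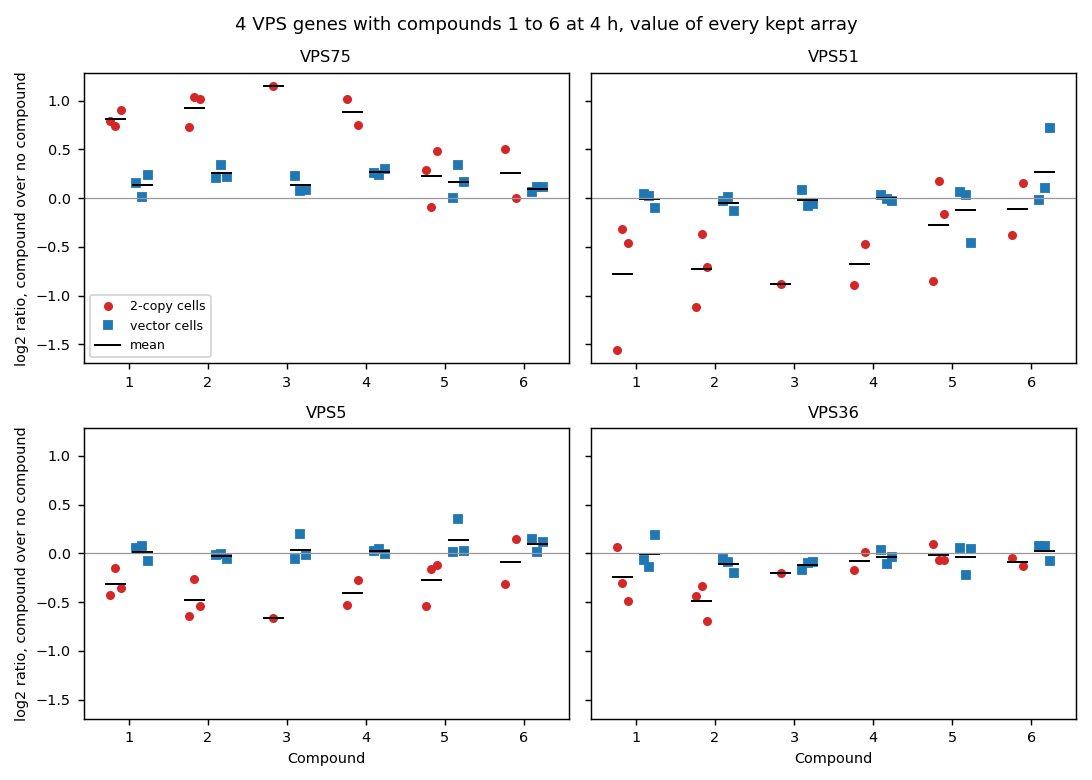
Log2 ratio with over without each of compounds 1 to 6 on every array kept, for VPS75, VPS51, VPS5 and VPS36. Red circles are 2-copy cells and blue squares to their right are vector cells. VPS75 lies between 0.73 and 1.15 in 2-copy cells with compounds 1 to 4 and between 0.01 and 0.34 in vector cells with them.

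When 2-copy cells were set against vector cells that both carried a compound, fewer members passed with compounds 1 and 2 than with compound 5. With compounds 1, 2, 3 and 4 there were 3, 2, 2 and 2 members higher and 0 lower, beside 9.94%, 7.75%, 8.8% and 8.97% of all probes in either direction. With compound 5, 13 were higher and 3 lower, beside 17.8% and 14.7%, and with compound 6 5 were higher and 2 lower, beside 19.6% in either direction. Compounds 3, 4 and 6 rest on 1 array each, taken to vary like the other groups. Without array 2, compounds 1 and 2 had 0 members and compound 5 had 3, and without array 3 they had 0, 1 and 12. After division by array spread compound 2 had 2 higher and 1 lower, compound 5 had 4 and 2, and compound 6 had 0.

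VPS60 and VPS62 were the members called higher with all 6 compounds. VPS60 averaged 0.28, 0.42, 0.87, 0.81, 0.68 and 0.85 with compounds 1 to 6, and VPS62 averaged 0.32, 0.29, 0.63, 0.73, 0.60 and 0.71. With compounds 1 and 2 both genes were below their values at 4 h without compound. VPS60 with compound 1 lost its call without any of the 3 arrays. VPS51 averaged 0.14, 0.24, 0.42, 0.42, 0.50 and 1.02 and VPS75 averaged -0.17, -0.13, -0.11, -0.17, -0.34 and -0.64. Both passed with compound 5 and with neither compound 1 nor 2, although both genes had passed in 2-copy over vector cells without compound. Compounds 3, 4 and 6 keep 1 array each, so passing cannot be compared with the groups of 3 arrays. The VPS51 means of 0.42 with compounds 3 and 4 lay near its 0.50 with compound 5.

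The difference of this ratio with minus without a compound, the third side of the same loop, was -0.70 (SE 0.18) and -0.60 (SE 0.18) for VPS51 with compounds 1 and 2 (limma, adjusted p = 0.0034 and 0.010). It was 0.40 and 0.44 for VPS75 (SE 0.14 each, adjusted p = 0.035 and 0.017) and -0.40 and -0.25 for VPS60 (SE 0.11 each, adjusted p = 0.0062 and 0.082). For VPS60 the response of 2-copy minus vector cells, given above for the other genes, was -0.30 and -0.33 and did not pass (adjusted p = 0.090 and 0.073). The lowest adjusted p on the third side were those of VPS20 with compound 1, at -0.56, and VPS4 with compound 2, at -0.62 (limma, adjusted p = 6.5e-04 and 6.1e-04). VPS20 was at -0.51 with compound 2 (adjusted p = 0.0013). Its responses to compounds 1 and 2 were nevertheless small, at -0.15 and -0.12 in 2-copy cells and -0.08 and -0.01 in vector cells. All of these comparisons with a compound minus without share the same 6 arrays at 4 h. With compound 3, on 1 array, VPS75 was at 0.46 (SE 0.22) on this side, beside 1.01 for 2-copy minus vector cells. VPS4 was at -0.76 (SE 0.22) on the same array, the largest in size of any member. VPS51 was at -0.42 (SE 0.28) with each of compounds 3 and 4, also on 1 array each. It was at -0.33 (SE 0.18) with compound 5 and did not pass. Over the members, the ratio measured with compounds 1 and 2 correlated with that computed from the other sides at only 0.27 and 0.34.

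No member passed the test between compounds that differ by a named change in structure. Compound 1 minus compound 2, an iodine in place of a bromine on the phenyl ring, gave 0 of 42 in 2-copy cells, with 1 at an unadjusted p under 0.05, beside 0% of all probes. The largest difference was -0.33 for VPS55 (95% interval -0.76 to 0.10), and over all members the intervals reached from -0.76 to 0.59. In vector cells the same pair gave 0, with 1 at an unadjusted p under 0.05, beside 0.0314%, with VPS501 at -0.28 (95% interval -0.56 to -0.00). Compound 3 minus compound 4, which differ in halogen position, gave 0 in vector cells, also unadjusted, beside 0%, with VPS72 at 0.26 (-0.05 to 0.56). These were 3 pairs, with p adjusted over all probes of each, and doses are not known to match. The intervals come from the fit without array numbers as a block. Same-numbered arrays of compounds 1 and 2 in 2-copy cells deviated together, at correlations of 0.67 to 0.74, and the intervals make no use of that pairing. As computed, they allow differences as large as many of the responses themselves.

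Over all 6 compounds together, limma's moderated F test called VPS75 and VPS36 in 2-copy cells (adjusted p = 9.3e-04 and 0.036), 2 of 42 beside 9.44% of all probes. In vector cells it called 0 of 42, beside 0.423%. VPS36 means were -0.24, -0.49, -0.21, -0.08, -0.01 and -0.09 in 2-copy cells with compounds 1 to 6. Without array 2 neither gene was called and without array 3 only 1 was, and after division by array spread there was 0 in 2-copy cells.

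Across the 30 groups, the members spread widely in how far they moved. VPS75, VPS51 and VPS36 were the 3 members with a group mean over 1 in size, 20 members never went over 0.5, and VPS25, VPS53 and VPS70 passed in none of the 30. VPS75 covered the widest range, 2.06 between its lowest and highest group mean. VPS60, VPS62 and VPS75 each passed in 11 of the 30 comparisons. VPS52, VPS72 and VPS60 are neighbours on chromosome IV in that order, and at 4 h their means in 2-copy over vector cells were -0.17, 0.28 and 0.67.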

How the data were processed

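Total RNA extracted with hot phenol was compared on 93 dual-colour arrays, per the labels. As deposited, the authors' table holds normalised log2 ratios, and the submitters' processing notes name limma without a version. Scale and direction were not stated, and signal over background is unknown. Array medians lay between -0.0306 and 0.0214.

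Of 6377 probes, 5840 were named by locus tag through the RefSeq table of R64. A mean per group was fitted to 83 arrays with limma 3.58.1 in R 4.3.3, with moderated two-sided tests (57.6 degrees of freedom) and Benjamini-Hochberg adjustment over all probes, and the fit was tested on simulated data. Alternatives were dividing arrays by their median absolute deviations (array scaling), a dye term, array numbers as a block, all 93 arrays, each experiment alone and leaving out array numbers. Splitting the 4 h arrays, turning the sign of 2 arrays, testing 6 h minus 4 h and the third side of the loop were added after the data were seen. Same-numbered arrays deviated together (every correlation over 0.1) in 3 of 10 differences checked, all between compounds.

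Named members passed the threshold with 1 sign on every array, or with ranges that did not overlap, up to 12 in each direction for 2-copy over vector at 4 h and 6 otherwise. Every member of a described complex was named, and other names were chosen after values were seen. The members and lists were chosen with earlier results of these data known.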

Additional observations from a re-analysis of the deposited data

Results flagged for a closer look

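VPS17, a sorting nexin of retromer, had 1 of 6 arrays apart from the rest in 2-copy over vector cells at 4 h. Array 1 read 0.06, while the other arrays lay between 0.51 and 0.77, and the gap was 0.632 of the whole range, above Dixon's 95% critical value for 6 samples. A rule of this kind marks about 1 in 20 groups by chance, and it was run on 42 members.

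The response to a compound differed between 2-copy and vector cells, by a test of the difference itself (limma, adjusted p under 0.05), in 8 of 42 VPS genes with compound 1, in 6 with compound 2 and in 2 with compound 3. VPS75 was among them with each of these compounds, at 0.68, 0.67 and 1.01. The cause was not tested, and the compound 3 value in 2-copy cells rests on 1 array.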

How the results depend on the processing

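Of the 1196 alternatives run on 145 named results, 969 kept their side of the threshold and 227 lost the call. Direction held in all of them, but named results were chosen for 1 sign on every array or ranges that did not overlap. Leaving out arrays therefore could not turn the direction, nor could scaling where all arrays had 1 sign. Of 345 alternatives for 45 counts, 248 stayed within 1.5 times. The causes of the moves below were not tested. Array scaling gave 9 VPS genes for 2-copy over vector at 6 h, 3, 4, 3 and 7 for 1-copy over vector at 0, 2, 4 and 6 h, and 6, 4, 8 and 4 for 1-copy over 2-copy. It gave 5, 3 and 4 for 4 h minus 0 h, 6 h minus 0 h and 6 h minus 4 h, 4 and 8 for compounds 1 and 2 in 2-copy cells, 2, 1 and 1 for compounds 3, 4 and 6 in vector cells, 6 and 0 for 2-copy over vector with compounds 5 and 6, 1, 0 and 0 for the strain difference with compounds 1, 2 and 3, and 0 and 1 for the F test in 2-copy and vector cells. With a dye term, which was past the threshold in 6 probes and 0 members, the counts were 1 and 2 for 2-copy over vector at 0 and 2 h, 0 and 0 for 1-copy over vector and 0 and 1 for 1-copy over 2-copy at these times, 2 for 2 h minus 0 h, 1 for compound 5 in 2-copy cells, 0 for compound 1 in vector cells, 0, 0, 10 and 11 for 2-copy over vector with compounds 1, 2, 5 and 6, 15, 18, 4, 4 and 2 for the strain difference with compounds 1 to 5, and 6 for the F test in 2-copy cells. With all 93 arrays they were 1 for 1-copy over 2-copy at 0 h, 1 for compound 5 in 2-copy cells, 8, 7 and 11 for 2-copy over vector with compounds 3, 4 and 6, 0 for the strain difference with compound 3 and 4 for the F test in 2-copy cells. The replicate block gave 11 for 2-copy over vector with compound 6 and 1 for the strain difference with compound 4 and moved no other count by over 1.5 times; in the compound pairs, where array numbers did pair the samples, the count stayed 0. Each experiment alone gave 9 for 2-copy over vector at 2 h and 0 for compound 5 in 2-copy cells. The third side of the loop gave 13, 1 and 4 for the strain difference with compounds 2, 3 and 5. Leaving out 1 array number gave 0 to 3 for 2-copy over vector at 0 h, 1 to 2 at 2 h and 15 to 20 at 6 h, 0 to 1 and 0 to 2 for 1-copy over vector at 0 and 2 h, and 1 to 1, 0 to 1 and 8 to 9 for 1-copy over 2-copy at 0, 2 and 6 h. It gave 0 to 1 for 2 h minus 0 h and 7 to 10 for 6 h minus 0 h. It gave 8 to 14, 1 to 3 and 0 to 4 for compounds 1, 4 and 5 in 2-copy cells, 0 to 1 for compound 1 in vector cells, 0 to 3, 0 to 3, 3 to 16 and 4 to 6 for 2-copy over vector with compounds 1, 2, 5 and 6, 4 to 5, 0 to 5 and 0 to 0 for the strain difference with compounds 1, 2 and 3, and 0 to 1 for the F test in 2-copy cells. Groups left without arrays gave no value.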
